A study of Mus musculus with 8 samples.

Results

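The genes examined were those of the lysosomal proton pump, the cathepsins and the major lysosomal membrane glycoproteins. They were chosen by symbol, as subunits of the vacuolar H+-ATPase (V-ATPase; Atp6v0 and Atp6v1 genes), its accessory subunits Atp6ap1 and Atp6ap2, the cathepsins named by a letter, and Lamp1 and Lamp2. The rule gave 44 of the 24639 gene entries, made up of 13 V1 genes, 9 V0 genes, 2 accessory genes, 18 cathepsins and 2 LAMP genes. The rule itself used no measured value, but it was set with earlier results of these data known.

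The V-ATPase is a rotary pump. Its V1 sector sits on the cytosolic face of the lysosome and hydrolyses ATP, and its V0 sector in the membrane carries protons into the lumen. The low pH that results is needed by the cathepsins, proteases that reach the lysosome through the secretory pathway, while LAMP1 and LAMP2 are heavily glycosylated proteins of the lysosomal membrane. In the kidney, lysosomal proteolysis takes part in the turnover of matrix and of filtered protein, and several pump subunits have forms restricted to acid-secreting intercalated cells.

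The cells were primary mouse mesangial cells (MMC), the contractile, matrix-producing cells of the glomerulus, grown from pooled glomeruli of wild type C57BL/6J mice (WT) or of C57BL/6J mice homozygous for a CRISPR-Cas9 deletion at miR-379 (miR-379KO). All cells were kept in serum-containing medium at low passage, and the labels name no treatment. The methods describe MMC prepared from adult male mice, and do not say at which age the mice behind these 8 libraries were killed. Each genotype was measured as total RNA, from poly(A) libraries, and as AGO2-IP, the RNA recovered with beads against AGO2, the protein that carries microRNAs to target RNAs. Each of the 4 combinations of genotype and assay had 2 replicates, A and B. The study calls A and B of AGO2-IP independent samples. Whether the replicates came from separate cultures or separate animals was not stated for either assay, so p-values measure the spread between these samples.

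Total RNA libraries held 17168230 to 22660743 gene counts. The AGO2-IP libraries held 5587611 to 17095021, of which 80.0 to 89.0% fell on the ribosomal RNA precursor Rn45s and on Lars2, leaving 1115782 to 1875037. The share of reads outside genes was 46.6 and 49.7% for the WT AGO2-IP libraries and 73.4 and 76.4% for the knockout ones. It was taken over reads in genes, outside genes or ambiguous between genes, leaving out all others. Of all reads accounted for, 26.8 and 26.9% in WT AGO2-IP and 12.1 and 11.1% in miR-379KO AGO2-IP were counted in genes. Every pair of replicates differed by more than sampling noise. Of 10 mesangial cell and pericyte markers 8 had a mean of at least 10 total RNA counts, with a summed level of 11440 to 18020 counts-per-million (CPM) in every library and Ren1 at 0. The 13 macrophage markers summed to 3.94 to 14.3 CPM, the 8 podocyte markers to 247 to 635 CPM with Ptpro at 0, and the 8 intercalated cell markers to at most 0.219 CPM. Mir379 had 0 counts in all total RNA libraries, 0 and 4 in WT AGO2-IP and 1 and 0 in miR-379KO AGO2-IP, so its loss could not be judged from these libraries. The study reported by qPCR that miR-379 was lost from AGO2-IP of miR-379KO MMC.

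The sequence of miR-379-5p (GRCm38.p6, chr12:109709065-109709085, plus strand, from RefSeq) is shown because its seed, bases 2 to 8, sets which messages it could pair with. The seed is in capitals.
miR-379-5p: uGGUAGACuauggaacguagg
The 7-base match GTCTACC was searched on the sense strand of the longest annotated 3′-UTR of each entry. It was present in 776 of 19139 3′-UTRs (4.05%) and in 0 of the 44 lysosomal genes. That says only that these letters are not in these windows.

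A second sequence bears on what could be counted. Atp6v0c encodes the c subunit of the proton-carrying ring, of which each pump holds several copies, and yet it had 0, 0, 2 and 0 counts in WT A, WT B, miR-379KO A and miR-379KO B total RNA and 0 in all 4 AGO2-IP libraries. Of the 1193 windows of 51 bases in its transcript, the shorter of the read lengths used, 77.8% occurred exactly a second time in the genome. Reads placed at more than 1 locus were not counted, so no level of this subunit is given. The repeats did not cover the whole transcript, and the cause of its near-absent counts was not tested. The last 51 coding bases (chr17:24164404-24164454, minus strand, coding exon) are an example of a repeated window. They stand unaltered in the pseudogenes Atp6v0c-ps2 (chr6:37806503-37806553) and Atp6v0c-ps1 (chr7:4412851-4412901).
Atp6v0c: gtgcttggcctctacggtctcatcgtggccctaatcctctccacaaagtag
Repeated windows made up 59.3% of Atp6v1g1 and 31.6% of Atp6v1f, so the levels of those V1 subunits are uncertain as well. In each of the other members the share was at most 6.95%.

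Promoters are shown because transcription factors of the MiT/TFE family, which include TFEB and TFE3, are known to bind a palindrome in the promoters of many lysosomal genes. TCACGTGA, the core of that element, and CACGTG, the E-box it contains, were searched in RefSeq promoters from 250 bases before to 50 bases after each annotated start. Both are palindromes, so a single search covers both strands. TCACGTGA was found in 5 of 38 promoters of the 34 member genes with an entry (13.2%) and in 0.974% of all 32851 promoters. CACGTG was found in 9 of the 38 (23.7%) and in 7.15% of all. A match is a description and not evidence of binding. Windows around the matches (GRCm38.p6, given 5′ to 3′ in the direction of the gene, motif in capitals) follow for the serine protease cathepsin A, which has a pair of matches, the aspartic protease cathepsin D, the V0 subunit genes Atp6v0d1 and Atp6v0e, and Lamp1, which has 4 copies of CACGTG.
Ctsa, chr2:164833746-164833798, plus strand: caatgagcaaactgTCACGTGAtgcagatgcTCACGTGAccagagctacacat
Ctsd, chr7:142387905-142387940, minus strand: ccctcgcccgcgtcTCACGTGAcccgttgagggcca
Atp6v0d1, chr8:105566047-105566082, minus strand: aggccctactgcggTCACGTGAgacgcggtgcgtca
Atp6v0e, chr17:26676384-26676419, plus strand: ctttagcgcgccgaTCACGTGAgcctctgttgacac
Lamp1, chr8:13159086-13159165, plus strand: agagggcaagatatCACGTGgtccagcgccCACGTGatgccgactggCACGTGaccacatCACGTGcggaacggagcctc
The fifth gene with TCACGTGA was Atp6v1a. The others with CACGTG alone were Atp6v0b, Ctsf and Ctsl.

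The levels of these genes in MMC were compared as RPKM in total RNA, that is, CPM divided by the length of exon in kilobases. That length joins the exons of all curated transcripts of a gene. It was 6773 bases for Lamp2 and 11061 for Ctsc, whose longest curated coding transcripts have 3900 and 7466 bases. For Lamp1 both lengths were 2232 bases. The RPKM of Lamp2 and Ctsc beside other genes therefore depends on this choice. Of the 44 genes, 31 averaged 10 or more counts over the total RNA libraries, and 22 averaged 1000 or more. The median of the 31 was 42.1 RPKM, compared to 7.92 RPKM over the 12275 genes that met the same minimum. Cathepsin D led, followed by Lamp1 and cathepsin L. In 25 of the 30 neighbouring pairs of the order the ranges over the 4 libraries overlapped, and clear steps followed only Ctsd, Lamp1, Atp6v0a2, Ctsc and Ctso.

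Among the V1 subunits Atp6v1e1, part of the peripheral stalk, was highest, with 96.0 and 139 RPKM in WT and 142 and 115 RPKM in miR-379KO total RNA. The catalytic A subunit Atp6v1a had 34.8, 36.1, 40.9 and 29.3 RPKM in the same order of libraries. The genotypes overlapped for both. For the B, C, E and G subunits, each encoded by several genes, 1 form made up nearly all of the RNA. Atp6v1b2, the common nucleotide-binding B subunit, ranged from 29.4 to 52.6 RPKM, while Atp6v1b1, the form of intercalated cells, had 0 counts in every total RNA library. For the C subunit, Atp6v1c1 ranged from 31 to 40.4 RPKM and Atp6v1c2 had 1 count in all 4 libraries together. For the E subunit, Atp6v1e2 had 0 counts beside the leading Atp6v1e1. For the G subunit, Atp6v1g1 ranged from 73.3 to 99.1 RPKM, the neuronal form Atp6v1g2 from 0.680 to 1.21 RPKM, and Atp6v1g3 had 0 counts.

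In V0, Atp6v0e, a small membrane subunit, had 109, 184, 175 and 168 RPKM in WT A, WT B, miR-379KO A and miR-379KO B, with WT A the lowest. Its paralog Atp6v0e2 ranged from 15.1 to 23.3 RPKM. Of the d subunits, which couple V1 to the ring from the cytosolic side, Atp6v0d1 ranged from 72.8 to 109 RPKM, and Atp6v0d2, the form of osteoclasts and macrophages, had 0 to 9 counts. The a subunits, which steer the pump to its membrane, were even between Atp6v0a1 (14.7 to 21.5 RPKM) and Atp6v0a2 (16.5 to 19.2 RPKM), whose ranges overlapped. Atp6v0a4, the renal form of intercalated cells, had 0.236 to 0.465 RPKM, or 13 to 28 counts. The accessory subunit genes Atp6ap1 and Atp6ap2 had means of 84.9 and 18.5 RPKM.

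Of the cathepsins, 11 of 18 met the minimum. Ctsd had 468 and 587 RPKM in WT and 634 and 459 RPKM in miR-379KO. The cysteine protease gene Ctsl had 179, 278, 200 and 145 RPKM in the same order, so WT B was the highest library. Ctsb (94.8 RPKM at the mean), Ctsa (45.2), Ctsz (44.5) and Ctsh (32.4) followed, while Ctsf, Ctsc and Ctso lay between 2.05 and 11.6 RPKM in every library. Ctsk, a collagenase of osteoclasts and fibroblasts, had 19, 4, 37 and 11 counts, and Ctsw of lymphocytes had 11 to 16. Ctss of antigen-presenting cells had 1, 1, 8 and 1 counts. Lamp1 ranged from 288 to 319 RPKM, while Lamp2 ranged from 34.0 to 48.8 RPKM with WT A the highest library.

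The other 13 genes fell below the minimum. Of these, 10 had at most 1 count over the 4 total RNA libraries, namely Atp6v1b1, Atp6v1c2, Atp6v1e2, Atp6v1g3, Ctse of stomach and immune cells, Ctsg of neutrophils, and Ctsj, Ctsm, Ctsq and Ctsr, which belong to the placental cathepsin cluster of rodents on chromosome 13. The other 3 were Atp6v0c, Atp6v0d2 and Ctss.

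**Figure D1:**
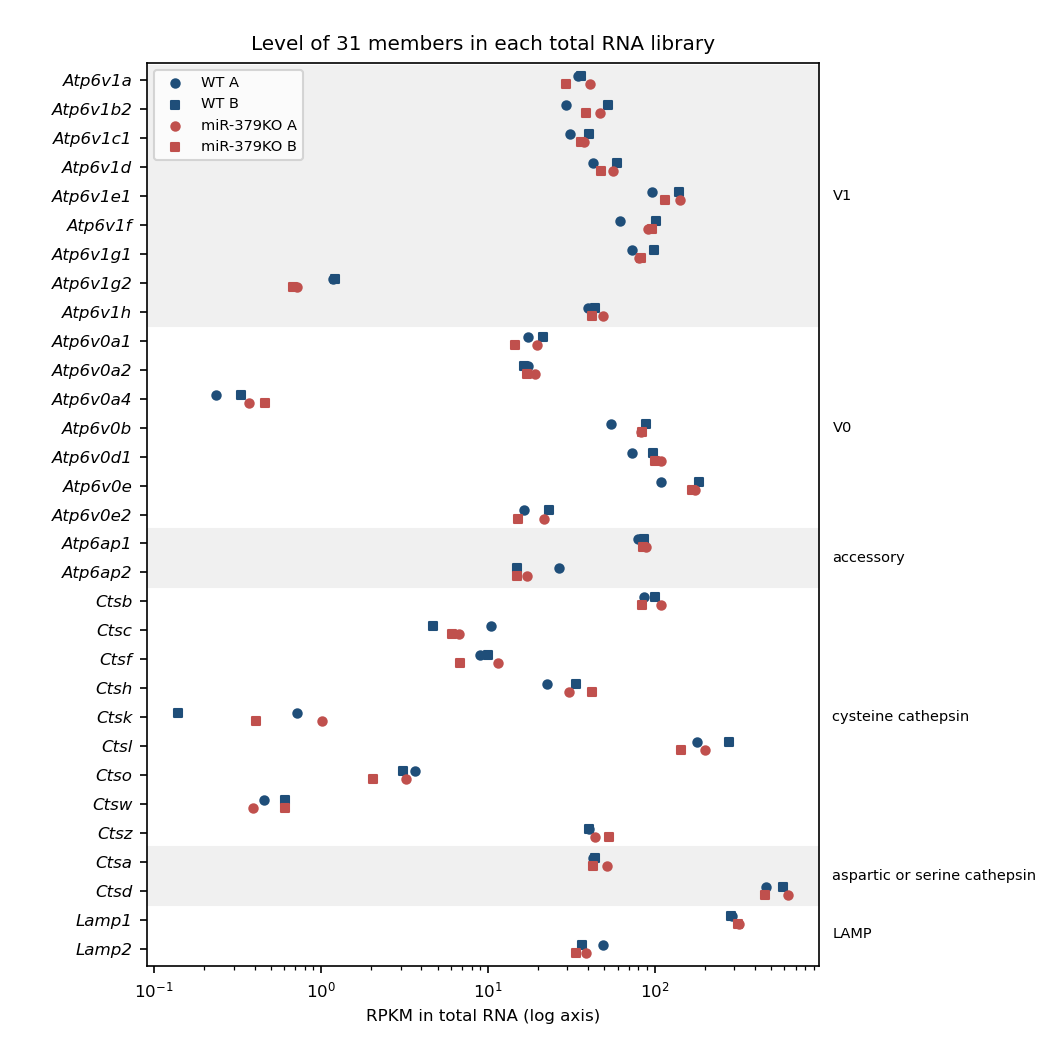
RPKM in each total RNA library of the 31 genes that averaged 10 or more counts (log axis), with WT in blue, miR-379KO in red, replicate A as circles and B as squares, grouped by role. Ctsd, Lamp1 and Ctsl lie at the right, and the libraries of the genotypes are interleaved for most genes.

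To ask whether loss of miR-379 altered the level of these messages, the genotypes were compared in total RNA. No pump subunit, cathepsin or LAMP gene passed the test in either direction. With edgeR's quasi-likelihood test and Benjamini-Hochberg adjustment, 0 of the 31 members were called, beside 0 of all 12321 genes tested (0%), and DESeq2 called 0 too. At an unadjusted p under 0.05 there were 0 members, beside 48 genes lower (0.39%) and 43 higher (0.349%). The cutoff used by the study, more than 1.5-fold at an unadjusted p under 0.05, was met by 0 members, beside 0.349% of genes lower and 0.333% higher. In bulk RNA a change in the number of cells of a type and a change in RNA per cell cannot be told apart.

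The smallest p-value belonged to Atp6v1g2, with 2.15 and 2.19 CPM in WT and 1.30 and 1.23 CPM in miR-379KO, from 21 to 40 counts a library. Its groups did not overlap, and the log2 fold change was −0.77 ± 0.45 (SE), with an edgeR unadjusted p of 0.134 and an adjusted p of 0.9997. Ctsh had 37.0 and 55.0 CPM in WT and 49.8 and 68.8 CPM in miR-379KO, which overlap (log2 fold change 0.37 ± 0.29, edgeR unadjusted p = 0.251). Ctsz, which encodes a carboxypeptidase, had 57.9 and 58.5 CPM in WT and 63.3 and 76.6 CPM in miR-379KO, which do not (0.27 ± 0.21, edgeR unadjusted p = 0.256). Besides Ctsz, the groups stood apart with miR-379KO higher in Atp6v0a4, Atp6v0d1 and Lamp1. That makes 4 of 31 higher and 1 of 31 lower, against 9.89% and 9.07% of all genes. Across the 22 members with at least 1000 counts, log2 fold changes lay between −0.41 (Ctsl) and 0.29 (Atp6v0d1) with standard errors of 0.20 to 0.38. The median over the 31 members was 0.056, compared to −0.0086 over all genes tested.

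The replicates of WT MMC stood apart for many members. In WT total RNA, 24 of 31 members and 15 of the 16 V1 and V0 genes were lower in A than in B, as in Atp6v1b2 with 80.6 and 144 CPM and Atp6v0e with 87.0 and 147 CPM. The share of all genes lower in A was not counted, so the offset is not shown to be particular to these genes. Over 12955 genes the WT total RNA replicates differed too, with a chi-square per degree of freedom of 119.2. In miR-379KO only 7 of the 31 were lower in A than in B. The direction of the members' median followed this. It was −0.087 without WT total RNA replicate A, 0.16 without WT B, −0.026 without miR-379KO A and 0.15 without miR-379KO B. Without WT B, 5 members met the study's cutoff, namely Atp6v0e (0.65), Atp6v0b (0.60), Atp6v1f (0.59), Ctsc (−0.71) and Atp6ap2 (−0.73), beside 3.93% of all genes higher and 6.28% lower in that setting, all at an edgeR adjusted p of 0.360.

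To ask whether recovery with AGO2 changed, the genotypes were compared in AGO2-IP. Here 4 cysteine cathepsins (Ctsh, Ctsb, Ctsl and Ctsz), the serine protease gene Ctsa, the proton ring subunit gene Atp6v0b and the accessory gene Atp6ap1 were lower in miR-379KO. These are 7 of the 29 members tested that had a mean of at least 10 total RNA counts, beside 9.52% of all 13505 genes tested. The background share rose with the level of a gene in total RNA. Of genes with a mean of at least 1000 total RNA counts, 26.4% were called lower and 0.192% higher, and 6 of the 22 members at that level (the 7 less Ctsh, whose mean was below it) were called lower. The members' share was therefore near that of genes of like level, and their median log2 fold change of −0.54 lay beside −0.45 for those genes and −0.01 for all genes tested.

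The CPM of the called genes were scaled within AGO2-IP. Atp6v0b (chromosome 4, 117884330 to 117887333, minus strand, GRCm38.p6) had 11.4 and 11.1 CPM in WT and 7.27 and 3.96 CPM in miR-379KO, from 116, 96, 62 and 31 counts. The log2 fold change was −0.99 ± 0.27 (SE, edgeR adjusted p = 0.00844). The genotypes did not overlap and the miR-379KO replicates were far apart.

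Ctsh (chromosome 9, 90054267 to 90076095, plus strand), a cysteine protease with aminopeptidase activity, had 6.86 and 8.44 CPM in WT and 4.34 and 3.83 CPM in miR-379KO (−0.90 ± 0.27, edgeR adjusted p = 0.0161). Ctsb, the most abundant cysteine cathepsin after Ctsl, lies on chromosome 14 (63122462 to 63145923, plus strand) and had 51.3 and 59.2 CPM in WT and 39.2 and 22.0 CPM in miR-379KO (−0.85 ± 0.27, adjusted p = 0.0194). Ctsl (chromosome 13, 64361890 to 64370772, minus strand) had 92.1 and 103 CPM in WT and 71.6 and 37.3 CPM in miR-379KO (−0.84 ± 0.29, adjusted p = 0.0309). For Ctsb and Ctsl miR-379KO B was the lowest library by a wide margin, while for Ctsh both miR-379KO libraries were alike.

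Ctsa, the protective protein of lysosomal neuraminidase, had 26.6 and 27.3 CPM in WT and 20.2 and 14.3 CPM in miR-379KO (−0.64 ± 0.23, edgeR adjusted p = 0.0379). Ctsz had 9.02 and 11.7 CPM in WT and 7.16 and 5.62 CPM in miR-379KO (−0.69 ± 0.25, adjusted p = 0.0412). Atp6ap1, an assembly factor of the pump that remains bound to V0, had 27.3 and 34.1 CPM in WT and 21.4 and 18.1 CPM in miR-379KO (−0.63 ± 0.23, adjusted p = 0.0393). In all 7 the groups did not overlap, a pattern shared by 19 of the 29 members in the lower direction, beside 32.2% of all genes, and by 17 of the 22 abundant members beside 69.6% of abundant genes.

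By role, 4 of 8 tested cysteine cathepsins were called lower and 0 of 8 V1 genes, whether these shares differ not being tested. V1 subunits had a median of −0.27, from −0.71 in Atp6v1f to 0.16 in Atp6v1c1, and cysteine cathepsins a median of −0.67. Just outside the threshold lay Ctsc (adjusted p = 0.0589), Ctsk (0.0607, with a log2 fold change of 1.19 in the higher direction) and Ctsd (0.0686, −0.70 ± 0.29). Lamp1 (−0.50 ± 0.25, adjusted p = 0.131) and Lamp2 (−0.34 ± 0.24, adjusted p = 0.283) did not pass.

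These calls depended on the libraries, the scaling and the correction for sequence features. With an offset for exon length and GC content, Atp6v0b (−0.55, edgeR adjusted p = 0.104), Ctsa (−0.45, 0.137) and Ctsz (−0.30, 0.379) were no longer called, while Ctsc (−1.51, 0.000449), Atp6v1a, Atp6ap2 and Lamp2 were. Without miR-379KO AGO2-IP replicate B, 0 members were called lower, without WT replicate B 2 were (Atp6v0b and Ctsc), and without miR-379KO replicate A 12 were. DESeq2 called 0 members lower, and TMM factors computed from abundant genes called 0 lower, with 4273 genes higher and 142 lower in place of 2887 and 1286. That scaling shifted the median over all genes to 0.44, from −0.01, and put the members' median at −0.10. In the 15 alternatives the log2 fold change of each of the 7 kept its sign, and Ctsb, Ctsh and Ctsl were called in 9 of them, Ctsa in 5.

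**Figure D2:**
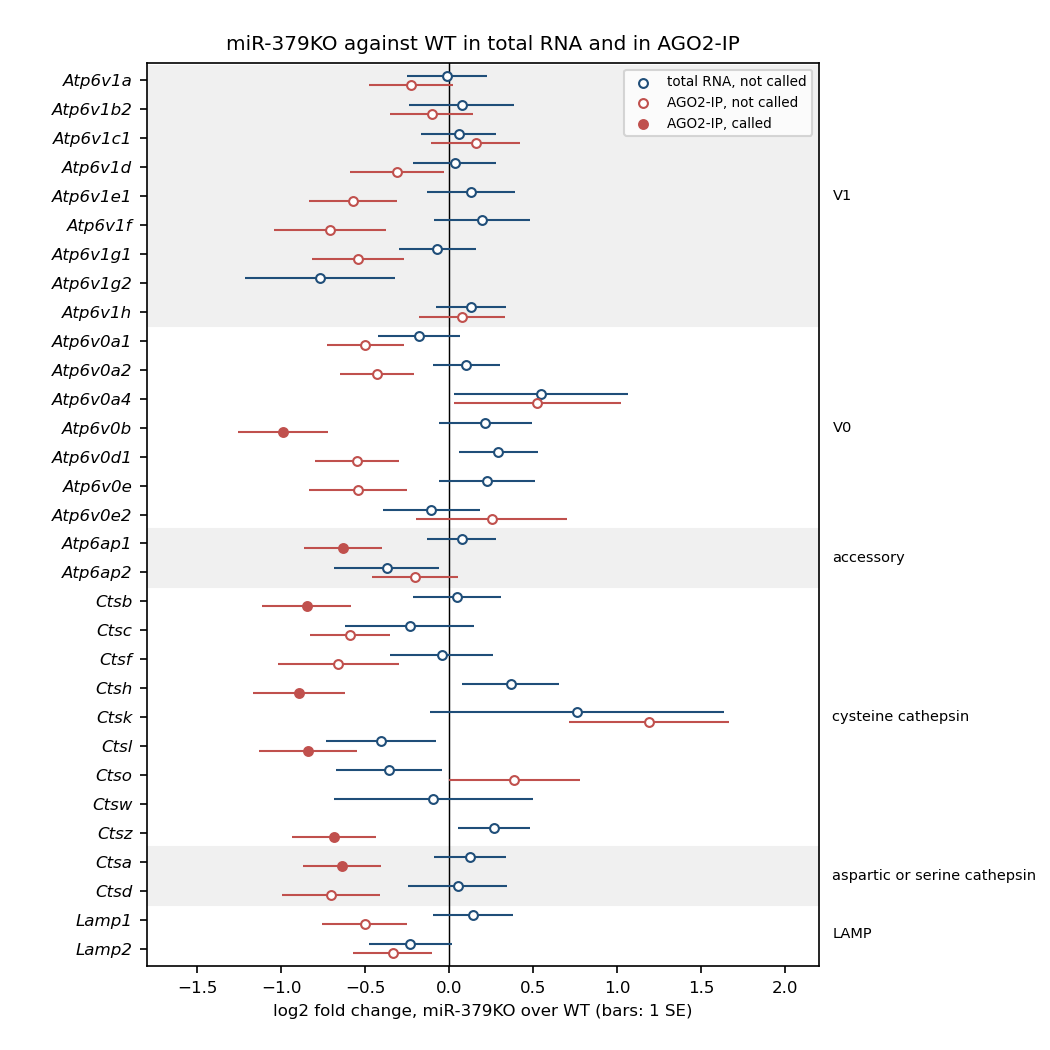
Log2 fold change of miR-379KO over WT for the 31 genes in total RNA (blue) and AGO2-IP (red), with bars of 1 SE, filled circles where a gene was called and open circles where it was not. Atp6v1g2 and Ctsw were not tested in AGO2-IP. No gene was called in total RNA, and the 7 filled AGO2-IP points lie between −0.99 and −0.63.

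The genes without a visible transcript behaved differently. Of the 10 members with at most 1 total RNA count, 3 passed the filter in AGO2-IP, and all 3 were called higher in miR-379KO, beside 21.4% of all genes. They passed through the miR-379KO libraries alone, so that their call is no further evidence. Atp6v1g3 had 2, 1, 16 and 13 counts (edgeR adjusted p = 0.000436). After scaling that is a ratio of 11.1, with a 95% counting interval of 3.45 to 57.2. Ctsq had 1 and 3 counts against 12 and 15 (ratio 7.78, 2.71 to 30.6) and Ctsm 2 and 2 against 9 and 8 (4.90, 1.60 to 20). The intervals cover counting error only.

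All 10 silent members together summed to 2.75 and 2.08 CPM in WT AGO2-IP and to 8.33 and 11.4 CPM in miR-379KO AGO2-IP. Per kilobase of exon that was 0.176 and 0.133 CPM against 0.534 and 0.729 CPM. Over all 4577 genes with an annotated 3′-UTR that were as silent in total RNA, it was 0.136 and 0.102 CPM against 0.345 and 0.438 CPM. The 3801 of these at 0 in every total RNA library took 0.558 and 0.420% of the AGO2-IP counts of WT MMC, with Rn45s and Lars2 left out, and 1.74 and 2.36% of those of miR-379KO MMC. The part of this background in the calls of the expressed members was not tested.

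**Figure D3:**
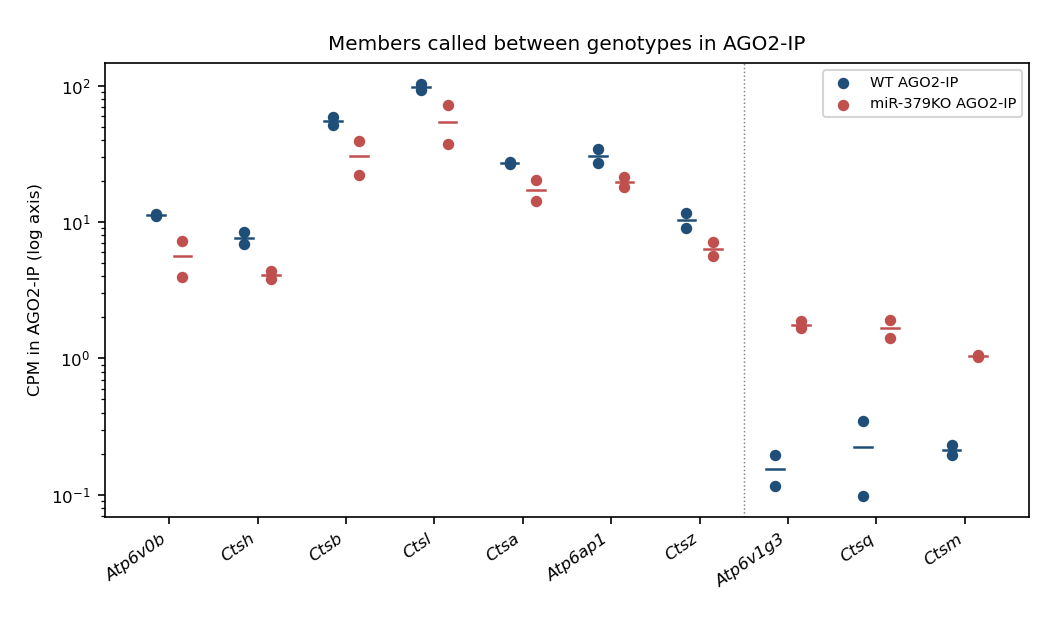
CPM in each AGO2-IP library (log axis) of the 10 genes called between genotypes, with WT in blue, miR-379KO in red and bars at the group means. Left of the dotted line the 7 expressed genes are lower in both miR-379KO libraries, and right of it Atp6v1g3, Ctsq and Ctsm rest on 1 to 16 counts a library.

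A message can change in AGO2-IP because its level in the cell changed, so the AGO2-IP change was tested against the total RNA change over all 8 libraries. No member was called, and edgeR called 0 of 17429 genes. At an unadjusted p under 0.05, 1898 genes were lower (10.9%) and 835 higher (4.79%), and DESeq2 called 114 genes. DESeq2 gave no adjusted p to 16219 genes, and to only 7 of the 31 members, so that it does not test Ctsh, Ctsz or Atp6v0b here. Ctsh came closest, with 6.86 and 8.44 against 4.34 and 3.83 CPM in AGO2-IP while its total RNA lay the other way. The difference of the changes was −1.45 ± 0.42 on the log2 scale (SE, edgeR unadjusted p = 0.00319, adjusted p = 0.235). Ctsz (−1.16 ± 0.36, adjusted p = 0.235) and Atp6v0b (−1.39 ± 0.45, adjusted p = 0.237) followed. In all, 11 members were lower at an unadjusted p under 0.05, 10 of them among the 22 abundant members, beside 35.4% of abundant genes. The median over the 31 members was −0.63, beside −0.68 for abundant genes. The absence of calls depended on the fit, as 4 alternatives called members lower. They were the fit without WT total RNA replicate B (7 members), the offset for GC content and length (5), that offset with the letters A and B as a block (9), and a block for total RNA and AGO2-IP of 1 genotype and letter (7), a pairing the labels do not state. Atp6v0b and Ctsh were the 2 members called in all 4.

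Recovery with AGO2 was then described within each genotype, as the log2 ratio of AGO2-IP to total RNA. These ratios use the same libraries as the comparisons above. Assay and library protocol change together here, so the ratio of a single gene is not a measure of AGO2 binding alone. A call needed an edgeR adjusted p under 0.05 and a difference of at least 2-fold. In WT MMC the subunits of the cytosolic V1 sector were under-represented in AGO2-IP, whereas most membrane and luminal proteins of the lysosome were not. In all, 11 of 31 members were called lower, beside 7.33% of all genes, and 10 of the 22 abundant members beside 21.7% of abundant genes. Besides Atp6v0e2 and Atp6v0e, they were Atp6v0d1, which lies on the cytosolic side, and all 8 V1 genes with at least 100 counts.

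The split was clearest by the side of the membrane on which the protein lies, a grouping chosen after the values were seen. Of the 9 cytosolic members with a mean of at least 100 total RNA counts, 9 were called lower, with a median of −1.19 and a range of −1.71 to −1.0. Of the 18 membrane or luminal members at that level, 2 were, with a median of −0.12 and a range of −2.30 to 0.34. The difference between the groups was not tested. Membrane and luminal proteins are made on ribosomes at the endoplasmic reticulum, and whether this has a part in the split was not tested either. Exon length and base composition moved with the grouping. The median exon length was 1650 bases for the cytosolic and 2311.5 for the other group, and the median GC content 48.6 and 51.2%. With an offset for GC content and length the medians were −1.90 and −1.13, with 9 of 9 and 10 of 18 called lower.

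Atp6v0e2 had the lowest ratio, at −2.30 ± 0.38 (SE, edgeR adjusted p = 0.000132), with 507 and 780 total RNA counts in WT MMC beside 11 and 14 AGO2-IP counts. Atp6v1e1 followed at −1.71 ± 0.29 (adjusted p = 0.000165), from 1959 and 3092 counts and 88 and 62 counts. The V1 subunit Atp6v1g1 (−1.32 ± 0.27), the d subunit Atp6v0d1 (−1.34 ± 0.28) and the V1 subunit Atp6v1b2 (−1.40 ± 0.31) were the next by p-value. At the other side, Ctsz (−0.004 ± 0.25), Atp6v0a1 (−0.03 ± 0.27), Ctsa (−0.05 ± 0.26) and Ctsh (−0.12 ± 0.29) had ratios within 1 SE of 0. Ctsk (2.30 ± 0.80, adjusted p = 0.0233) and Atp6v0a4 (2.29 ± 0.64, adjusted p = 0.00661) were called higher, from 7 and 4 or 12 and 4 counts in AGO2-IP, as were 35.7% of all genes.

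In miR-379KO MMC the cytosolic subunits were again lower in AGO2-IP, and 6 of the 11 expressed cathepsins (Ctsa, Ctsb, Ctsd, Ctsh, Ctsl and Ctsz) joined the genes called lower. Of the 31 members 20 were called lower, beside 19.3% of all genes, and 18 of the 22 abundant members beside 53.8% of abundant genes. Cytosolic members were again called in 9 of 9 cases, with a median of −1.76, and membrane or luminal members in 11 of 18, with a median of −1.10. Atp6v1e1 (−2.60 ± 0.30), Atp6v0d1 (−2.37 ± 0.29), Atp6v1f (−2.29 ± 0.34), Atp6v0e (−2.29 ± 0.36) and Atp6v1g1 (−1.99 ± 0.29) were lower with the smallest p-values (edgeR adjusted p at most 5.1e-05). Ctsd (−1.64 ± 0.35), Ctsb (−1.62 ± 0.32) and Lamp1 (−1.50 ± 0.28) were called here, and were not in WT at −0.68, −0.52 and −0.64. In the main fit, none of these 3 genes was called in the test of the AGO2-IP change against the total RNA change. Ctsb, but not Ctsd or Lamp1, was called lower in miR-379KO when the genotypes were compared within AGO2-IP. Among low genes Ctsk (2.49), Ctsw (2.30), Atp6v0a4 (2.10) and Atp6v1g2 (1.71) were called higher, beside 41.6% of all genes.

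The WT result rested in part on 1 library. Without WT total RNA replicate B, 3 members were called lower (Atp6v0e2, Atp6v1e1 and Atp6v0d1), and 2 of the 9 cytosolic members, whose median was then −0.85 beside −0.10 for the membrane and luminal members. With TMM factors from abundant genes the medians were −0.81 and 0.25, with 2 of 9 and 1 of 18 called lower. In each alternative the cytosolic median lay below the other in both genotypes. The grouping was chosen after values of these same libraries were seen, so this order is no further evidence for the split.

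**Figure D4:**
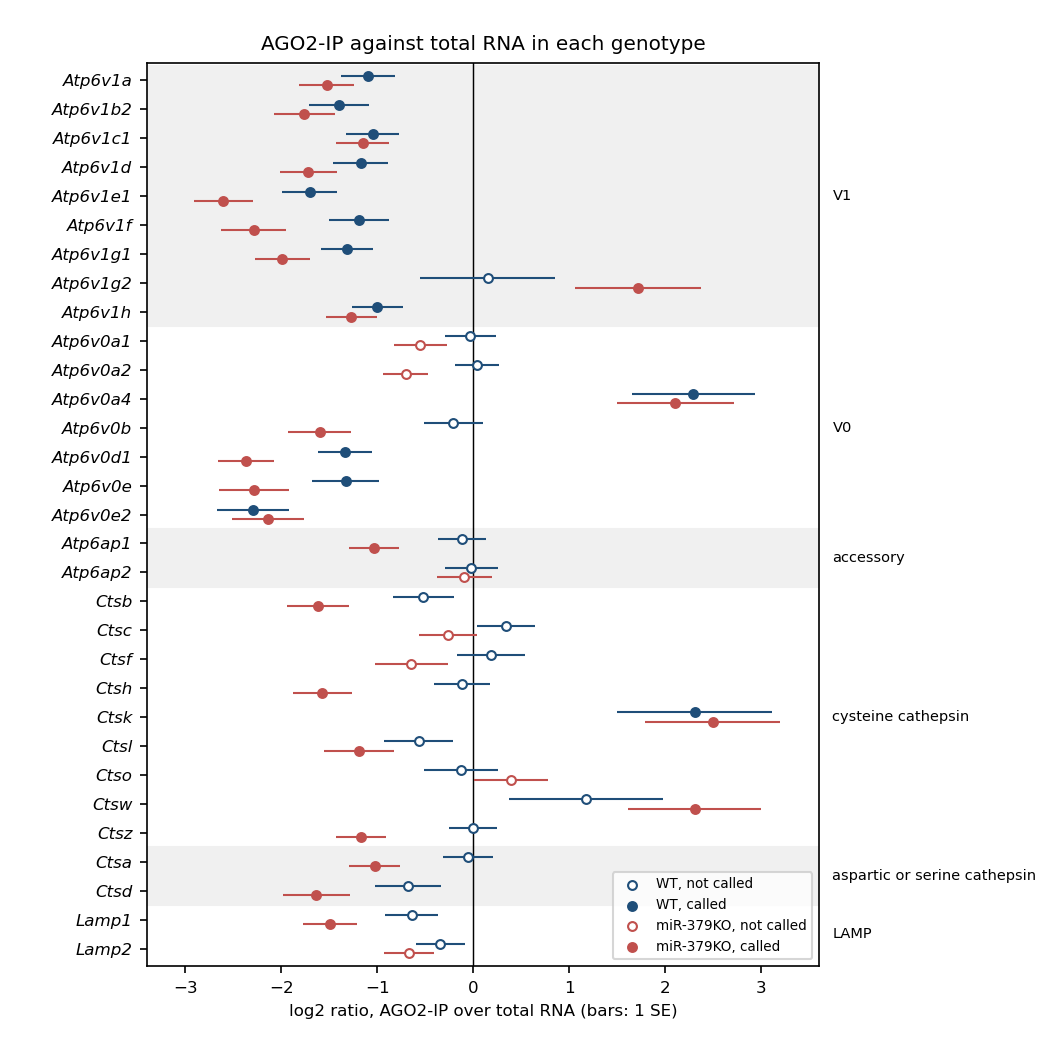
Log2 ratio of AGO2-IP to total RNA for the 31 genes in WT (blue) and miR-379KO (red), with bars of 1 SE and filled circles where a gene was called. The V1 subunits other than Atp6v1g2 lie at or below −1.0 in both genotypes, while WT cathepsins of the abundant range lie between −0.68 and 0.34.

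Other genes of the lysosome were counted over 7 lists of related function. In total RNA, and in the test of the AGO2-IP change against the total RNA change, 0 genes of all 7 lists were called. The share called lower in AGO2-IP, 9.52% of all genes and 26.4% of abundant genes, and called higher, 21.4% and 0.192%, stands beside the counts that follow. In AGO2-IP, 12 of 39 lysosomal hydrolases were lower in miR-379KO and 0 higher, led by the phospholipase gene Pla2g15 (−1.24 ± 0.24) and Naglu (−1.22 ± 0.32), which degrades heparan sulphate. In the AGO2-IP libraries Pla2g15 had 237, 140, 81 and 56 counts. Of 25 genes of lysosomal activators, membrane proteins and transporters, 8 were lower, led by the tetraspanin gene Cd63 (−1.03 ± 0.24) and the cholesterol transporter gene Npc1 (−0.79 ± 0.23), and 2 higher. Both of the latter rested on few counts, with Lamp3 at 7, 1, 16 and 13 and Cln3 at 7, 3, 12 and 19 in the 4 AGO2-IP libraries.

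Of 11 further pump genes tested, Tcirg1, the a subunit of osteoclasts, was lower (−0.98 ± 0.34), with 152, 55, 43 and 46 counts in the same order. The assembly factor gene Vma21 (1.01 ± 0.27) and Dmxl2 of the pump's regulatory complex (0.69 ± 0.24) were higher. Vma21 had 38, 32, 61 and 61 counts. Of 12 sorting genes, the receptor genes Lrp1 (−1.11 ± 0.33) and Igf2r (−0.65 ± 0.23) were lower. Of 20 genes of MiT/TFE factors and nutrient sensing, Tfe3 (−0.97 ± 0.28) and Lamtor4 (−1.30 ± 0.46) were lower and 3 were higher, led by Tfec (3.64 ± 0.63) and Rragd (1.37 ± 0.47), on at most 22 counts a library. Of 4 cathepsin inhibitors tested, Cstb, which encodes cystatin B, was lower (−1.07 ± 0.35) and Csta1 higher, on 1, 2, 13 and 16 counts. Of 21 autophagy genes, Sqstm1 (−0.85 ± 0.29) and Calcoco1 (−0.82 ± 0.27) were lower and 0 higher. The medians of the lists in AGO2-IP lay between −0.73 for the cathepsin inhibitors and 0.04 for the further pump genes, beside −0.01 for all genes tested and −0.45 for abundant genes.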

How the data were processed

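The files were lists of whole-read counts per gene, as the authors deposited them, without normalization, 1 per sample. Per the authors' methods, reads were aligned to mm10 with TopHat and counted on RefSeq genes with HTSeq 0.6.0 in reverse-stranded mode at a minimum alignment quality of 10, so antisense genes were kept apart and reads placed at several loci were lost. Submitters' processing notes also name Bowtie2 2.1.0.1. The methods give single reads of 51 bases or paired reads of 101 bases for total RNA, and paired reads of 101 bases for AGO2-IP. Read length may therefore differ between the assays.

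Symbols were matched to RefSeq in GRCm38.p6 (23598 by symbol, 721 by synonym, 320 unmatched, all 44 members matched). Fits used edgeR 4.0.16 in R 4.3.3 with TMM factors, filterByExpr (minimum count 10), robust quasi-likelihood tests and Benjamini-Hochberg adjustment over all genes tested, called under 0.05. Genotypes were compared within each assay (4 libraries), other comparisons over all 8. The script was tested on simulated data. CPM and RPKM were scaled within an assay. Log2 fold changes carry 1 SE. Low-count ratios have exact 95% counting intervals.

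Members, lists and tests were chosen with earlier results of these data known. Members below a mean of 10 total RNA counts were given by counts only. Full statistics went to called members (the 5 smallest p-values where over 10 were called) or, where fewer than 3 were called, to the 3 smallest p-values. Named list genes were up to 2 per direction. The lists held V-ATPase genes outside the rule (12), lysosomal hydrolases (40), activators, membrane proteins and transporters (27), sorting (12), MiT/TFE and nutrient sensing (21), cathepsin inhibitors (11) and autophagy (22). Marker lists for endothelial, tubule and osteoclast cells summed to 17.9 to 40.0, 13.5 to 58.1 and 112 to 299 CPM in total RNA. The letters A and B were also fitted as a replicate block. Alternatives are given in the closing section.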

Additional observations from a re-analysis of the deposited data

How the results depend on the processing

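In total RNA 0 genes were called under each alternative but the crossed replicate block (WT A with miR-379KO B, chosen after seeing the data, since same-letter samples correlated at −0.11 across genes), which called 1, no member. In AGO2-IP the correlation was 0.038, so the letters were not shown to pair the genotypes. Whether total RNA and AGO2-IP of 1 letter share a culture is not given in the sources used here. The replicate block called 3817 genes with 5 members lower and 3 higher. Its other counts of genes were 0 in total RNA, 8 for the AGO2-IP change beyond total RNA, and 7473 and 10604 for AGO2-IP against total RNA in WT and miR-379KO, where it changed no count of members called.

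Between genotypes in AGO2-IP (4173 genes, 7 members lower, 3 higher), DESeq2 called 802 genes with 0 members lower and 1 higher, all 8 libraries in 1 fit 686 with 0 and 1, a minimum mean of 50 counts 274 with 0 and 0, and no filter on low counts 15 members lower. TMM factors from abundant genes left 0 members lower, with 4273 of the calls higher and 142 lower in place of 2887 and 1286. With the GC and length offset 1956 were higher and 1608 lower. With 1 library left out the calls ranged from 918 to 3337 genes, 0 to 12 members lower and 1 to 4 higher, lowest without miR-379KO replicate B.

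For the AGO2-IP change beyond total RNA (0 genes, 0 members), DESeq2 called 114 genes (16219 of 17429 had no adjusted p), TMM factors from abundant genes 37, a minimum mean of 50 counts 2, the GC and length offset 958 with 5 members lower, that offset with the replicate block 1838 with 9, and a culture block (total RNA and AGO2-IP of 1 genotype and letter, chosen after seeing the data) 1108 with 7. With 1 library left out the range was 0 to 1547 genes and 0 to 7 members.

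For AGO2-IP against total RNA in WT (7507 genes, 11 members lower, 10 higher), TMM factors from abundant genes left 3 members lower, the GC and length offset gave 19 (higher and lower genes 6230 and 1277, 7281 and 358 with abundant-gene factors, 4988 and 4634 with the offset), and a minimum mean of 50 counts gave 1829 genes with 0 members higher. With 1 library left out 5401 to 8908 genes, 3 to 11 members lower and 5 to 11 higher were called. In miR-379KO (10627 genes, 20 lower, 13 higher), TMM factors from abundant genes left 5 members lower (7256 genes higher and 3371 lower, 10032 and 597 with these factors, 5951 and 7271 with the offset), no filter on low counts gave 16163 genes, and a minimum mean of 50 counts 3380 with 13 lower and 0 higher. With 1 library left out 8267 to 11126 genes, 16 to 21 members lower and 6 to 13 higher were called. Of the members called higher in the main fits, 2 of 10 in WT and 4 of 13 in miR-379KO had a mean of at least 10 total RNA counts. The others passed the filter through AGO2-IP libraries alone, so that their calls are no further evidence.

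Of 772 alternative values of the members called in each comparison (the 3 with the smallest p-values where none was), 631 kept their sign and side of the threshold, 129 lost and 10 gained a call, and 2 changed sign, both for AGO2-IP against total RNA in miR-379KO with TMM factors from abundant genes (Atp6ap1 0.013 and Ctsa 0.0080). The cause of these differences was not tested. Where a library was left out, its lone partner was assumed to vary like the other groups. Members in AGO2-IP rested on 1115782 to 1875037 counts outside Rn45s and Lars2, so for those with under about 10 counts a library only large differences were detectable.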
